A study of Mus musculus with 8 samples.

Results

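Core initiation sites (ISs) are the autosomal ISs of wild-type (WT) CH12 cells that overlapped an IS in each of the other 3 deposited lists by 1 bp or more. They numbered 15250 of 25725 autosomal WT ISs, or 59.3% (95% Wilson interval 58.7 to 59.9%, counting error only). They were chosen by the calls themselves, so their presence in every list, their densities and their fold changes are described below without a test, and gene context and sequence, which the rule did not use, are compared with those of the 10475 WT ISs outside the core.

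CH12 is a mouse B cell lymphoma line, cultured here with IL4, CD40 and TGF beta stimulation, and ISs were mapped in it by short nascent strand sequencing (SNS-seq), which sequences newly made DNA that an RNA primer shields from lambda exonuclease. The 8 libraries form 4 groups of 2 replicates: WT, Rif1KO, Rif1KO_shLacZ and Rif1KO_shMcm6. The WT group alone carries RIF1. The other groups share the Rif1 deletion, and both hairpin groups were in addition infected and selected for a short hairpin, against LacZ as the control or against Mcm6. The processed files hold no expression values, so neither the deletion nor the knockdown was checked here, and they hold 1 pooled value per condition, so no replicate error is available.

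Replication in mammalian cells starts at many places spread over each chromosome. Before S phase, pairs of MCM2-7 helicases, of which MCM6 is a subunit, are loaded onto DNA at more places than will be used, and only some of them fire. RIF1 brings protein phosphatase 1 to chromatin, opposes the kinases that activate the helicase, and sets when large domains replicate. Mapped ISs often lie near G-quadruplex (G4) sequence, where runs of guanine on one strand can fold into a stacked structure, and near promoters. The comparison of the 4 lists asks which ISs of WT cells stay detectable when RIF1 is gone and when, in addition, MCM6 is depleted.

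The following 5 core ISs show how different the sequences of core ISs are. Each line shows the 300 bases around the WT centre of the IS on the plus strand of mm9 (NCBIM37), read 5′ to 3′, and capitals mark G4 patterns, defined as 4 runs of 3 or more G separated by loops of 1 to 7 bases on either strand, so that a pattern on the minus strand reads as runs of C. They were taken from the densest core ISs and from the core ISs with the highest and lowest fold changes, outside annotated untranslated regions.
AY036118, chr17:39984847-39985146: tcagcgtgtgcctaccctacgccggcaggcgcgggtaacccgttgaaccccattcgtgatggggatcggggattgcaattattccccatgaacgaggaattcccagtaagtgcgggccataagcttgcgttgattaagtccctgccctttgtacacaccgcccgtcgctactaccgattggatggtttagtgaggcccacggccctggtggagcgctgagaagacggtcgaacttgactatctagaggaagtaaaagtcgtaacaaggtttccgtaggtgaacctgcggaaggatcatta
Rasgrf1, chr9:89775476-89775775: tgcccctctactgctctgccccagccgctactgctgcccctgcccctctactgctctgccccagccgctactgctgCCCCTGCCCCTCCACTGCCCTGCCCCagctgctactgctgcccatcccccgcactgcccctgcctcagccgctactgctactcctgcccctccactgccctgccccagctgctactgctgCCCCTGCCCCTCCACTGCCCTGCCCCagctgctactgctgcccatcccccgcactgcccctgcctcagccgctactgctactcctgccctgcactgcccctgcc
Krt8, chr15:101832683-101832982: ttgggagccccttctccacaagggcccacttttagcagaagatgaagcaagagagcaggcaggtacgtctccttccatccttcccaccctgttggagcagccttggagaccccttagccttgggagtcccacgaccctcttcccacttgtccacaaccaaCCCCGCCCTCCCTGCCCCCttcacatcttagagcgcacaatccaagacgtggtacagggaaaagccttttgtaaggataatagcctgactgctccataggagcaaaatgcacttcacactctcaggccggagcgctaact
Adamtsl5, chr10:79811673-79811972: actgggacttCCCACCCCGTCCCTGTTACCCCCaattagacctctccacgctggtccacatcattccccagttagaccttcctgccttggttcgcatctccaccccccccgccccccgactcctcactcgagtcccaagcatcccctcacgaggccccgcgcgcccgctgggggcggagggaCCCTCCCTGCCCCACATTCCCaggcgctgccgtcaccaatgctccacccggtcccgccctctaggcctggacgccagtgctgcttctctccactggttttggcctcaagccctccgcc
Creg1, chr1:167698074-167698373: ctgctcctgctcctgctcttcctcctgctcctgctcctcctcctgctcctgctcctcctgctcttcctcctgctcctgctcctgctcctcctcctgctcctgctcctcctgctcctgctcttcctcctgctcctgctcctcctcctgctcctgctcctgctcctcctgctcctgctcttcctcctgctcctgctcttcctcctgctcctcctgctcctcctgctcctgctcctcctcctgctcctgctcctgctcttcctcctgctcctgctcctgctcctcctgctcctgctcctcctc
The AY036118 window ends in the 3′ end of the 18S ribosomal RNA and lies in an annotated pseudogene; it holds no G4 pattern in its centre. The Rasgrf1 window lies in a tandem array 28021 bp upstream of Rasgrf1, an imprinted gene for a Ras exchange factor, and repeats a C-run pattern. The Krt8 window, in an intron of a keratin gene, holds 1 pattern of 19 bases to the right of its centre. The Adamtsl5 window lies upstream of a gene of the ADAMTS-like secreted proteins and holds 44 bases in G4 patterns. The Creg1 window, in an intron of a gene for a secreted glycoprotein, is an array of short CT-rich units with no G4 pattern.

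The core was the largest of the 8 combinations of lists that a WT IS could fall in. The next was the 3208 WT ISs (12.5%) found in both hairpin lists but not in Rif1KO, followed by the 2778 (10.8%) shared with Rif1KO but with neither hairpin list. Another 1453 WT ISs (5.65%) overlapped no other list. The lists differ greatly in length, with 33465 autosomal ISs in Rif1KO, 98867 in Rif1KO_shLacZ and 113626 in Rif1KO_shMcm6, so the core took up 45.5% of the Rif1KO list, 15.3% of the Rif1KO_shLacZ list and 13.3% of the Rif1KO_shMcm6 list.

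**Figure D1:**
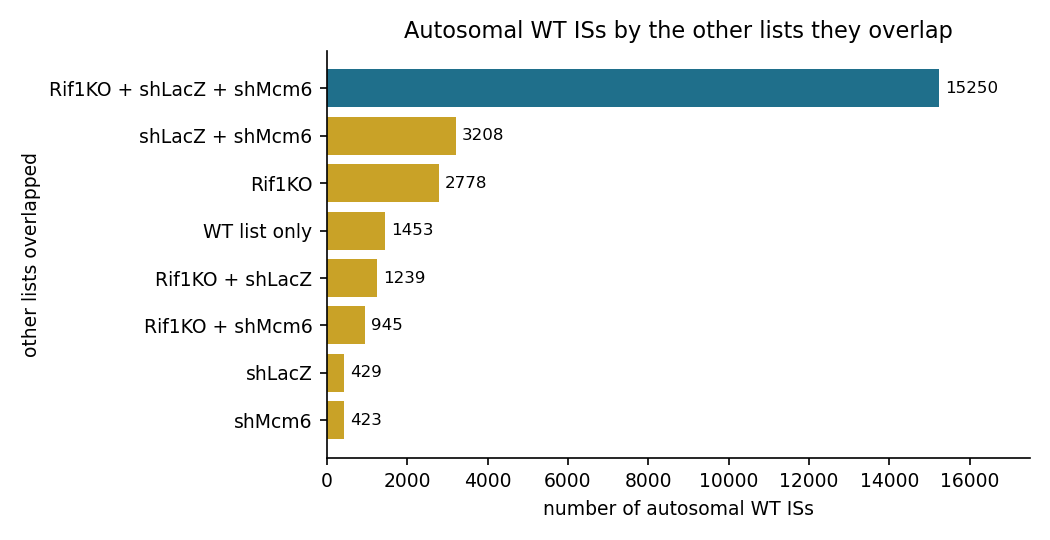
Number of autosomal WT ISs (horizontal axis) for each combination of other lists that they overlap (vertical axis), with the core in blue. The bar of 15250 ISs found in all lists is the longest, ahead of 3208 ISs found in both hairpin lists and not in Rif1KO.

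Few core ISs lay near the 1 bp threshold, but a stricter rule that asks for an overlap of 50% of both ISs would leave 36.1% of WT ISs in the core in place of 59.3%. The smallest overlap of a core IS was 76 bp with a Rif1KO IS, 49 bp with a Rif1KO_shLacZ IS and 23 bp with a Rif1KO_shMcm6 IS, and the median core IS was covered to 98.9%, 100% and 100%. These smallest overlaps belonged to an intergenic IS at chr2:22599559-22599977, 29637 bp from the TSS of Apbb1ip, to an intergenic IS at chr11:29224968-29225527, 48131 bp from that of Ccdc88a, and to a promoter IS over the TSS of Osbp2 at chr11:3763706-3764192. Just outside the threshold, the nearest missed WT IS ended 33 bp from a Rif1KO IS, 30 bp from a Rif1KO_shLacZ IS and 5 bp from a Rif1KO_shMcm6 IS. Only 164, 91 and 113 missed WT ISs had an IS of the respective list within 1 kb, out of 5513, 5599 and 5899 missed.

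Most missed WT ISs lay far from any IS of the list that missed them. The authors kept a peak only if it lay in a cluster with another peak of its list, and in the deposited lists no IS was farther from its nearest neighbour than 32075 bp in Rif1KO, 11797 bp in Rif1KO_shLacZ and 10274 bp in Rif1KO_shMcm6. Of the WT ISs missing from the Rif1KO list, 36.8% (2029 of 5513) had a Rif1KO IS within that distance. For the hairpin lists the share was 7.05% (395 of 5599) for Rif1KO_shLacZ and 7.8% (460 of 5899) for Rif1KO_shMcm6. At the remaining places an isolated peak would not have been listed, and whether one was called there was not tested.

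Core ISs were denser than other WT ISs in every condition. IS density is the log2 of RPM, the read count scaled to 1000000 reads within the ISs of a merged table. A merged table joins the ISs of a pair of lists, and the table of WT and Rif1KO and the table of both hairpin groups were scaled separately. In WT the median core IS had a density of 4.73 log2 RPM (quartiles 4.43 and 5.10), against 4.52 for the WT ISs outside the core. In Rif1KO the medians were 4.72 and 4.37. In the hairpin table they were 3.56 and 3.30 for Rif1KO_shLacZ and 3.46 and 3.22 for Rif1KO_shMcm6, where 10 core ISs had no single merged IS and 6234 of the 10475 other ISs had a value. The distributions overlapped widely: the lower quartile of core ISs lay below the median of the others in WT and both hairpin groups, and was 4.39 against that median of 4.37 in Rif1KO.

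**Figure D2:**
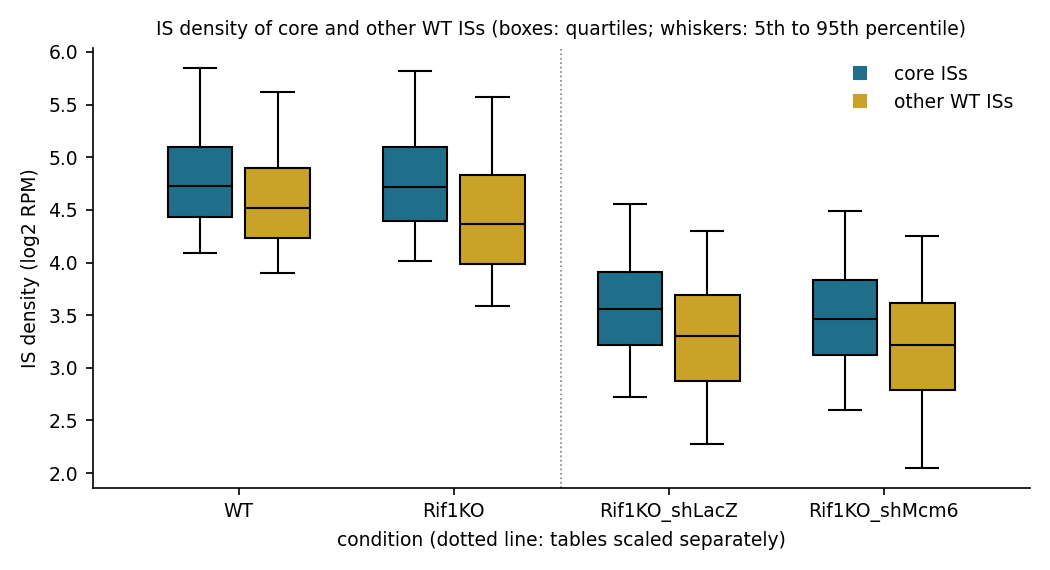
IS density in log2 RPM (vertical axis) of core ISs (blue) and WT ISs outside the core (yellow) in the 4 conditions, with boxes for quartiles and whiskers for the 5th to 95th percentile. The core median is higher in each condition, for example 4.73 against 4.52 in WT, and levels cannot be compared across the dotted line.

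The difference was smaller per kb of the merged IS. The difference between the medians shrank from 0.21 to 0.03 on the log2 scale in WT and from 0.35 to 0.15 in Rif1KO. It shrank from 0.26 to 0.11 in Rif1KO_shLacZ and from 0.24 to 0.11 in Rif1KO_shMcm6. The rule asks for an IS in each list that is joined, so the width of a merged IS is not independent of the rule. The WT ISs themselves had a median width of 426 bp in the core and 408 bp outside. Core ISs held 47.3% of the reads in autosomal ISs in WT and 46.4% in Rif1KO, on 43.2% of the covered length. In the hairpin table they held 19.7% in Rif1KO_shLacZ and 18.5% in Rif1KO_shMcm6, on 15.4% of the covered length.

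The order of densities within the core was closer within a table than between tables. Over 15240 core ISs, Spearman's rank correlation was 0.887 between WT and Rif1KO and 0.904 between the hairpin groups. Across tables it was 0.579 between WT and Rif1KO_shLacZ, 0.507 between WT and Rif1KO_shMcm6, 0.602 between Rif1KO and Rif1KO_shLacZ and 0.55 between Rif1KO and Rif1KO_shMcm6. These values describe ISs that share merged coordinates within a table, and ISs are not independent replicates.

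The densest core ISs by mean rank over the 4 conditions included several sequence arrays. First was the 18S ribosomal site in AY036118 at chr17:39984276-39985717, with 9.12 in WT, 8.90 in Rif1KO, 8.08 in Rif1KO_shLacZ and 7.92 in Rif1KO_shMcm6. Second was a 2180 bp IS in an intron of Unc45b, which encodes a myosin chaperone, in a merged IS that also holds a further WT IS, with 8.40, 8.33, 6.87 and 6.65. Next was the array upstream of Rasgrf1, with 8.35, 8.21, 6.58 and 6.28. Each of them was lower in Rif1KO than in WT and lower in Rif1KO_shMcm6 than in Rif1KO_shLacZ, by at most 0.31.

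Sequence repetition was measured as the share of distinct 12-base words in an IS, which was 99.6% for the median core IS and 42% at the 1st percentile. It was 33.1% for the Unc45b IS, 36.9% for the Rasgrf1 IS and 17% for the ninth site, an intron of Cldn10, a claudin gene of tight junctions. A pair of intergenic sites near Ttr on chromosome 18 had 27% and 31.4%. By contrast the AY036118 IS (99.9%) and a pair of ISs at Sfi1 and Drg1 near the start of chromosome 11 (both 100%) hardly repeated a word, and whether such sequence occurs elsewhere in the genome was not tested. The reads were aligned uniquely, and reads that fit several places were dropped by the authors. Whether the densest sites still carry reads from further copies was not tested. The densest WT IS of all, at the same ribosomal locus, was a core IS with 10.49 log2 RPM that fell in several merged hairpin ISs and was therefore not ranked.

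Core ISs changed little between WT and Rif1KO, as far as a single pooled value per condition shows. The log2 fold change had a median of -0.02 and a standard deviation of 0.22 over 15250 core ISs, against -0.14 and 0.29 for the other WT ISs. At the study's 1.5-fold threshold 71 core ISs (0.466%) were higher and 159 (1.04%) lower in Rif1KO. Over all autosomal ISs of that table the shares were 2.27% higher and 2.69% lower. The rule used the calls in both conditions, which keeps ISs with large losses out of the core, so nothing is read from this difference.

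Chromosomes 10, 15 and 16 held most of the core ISs past 1.5-fold. Chromosome 10 had 123 of the 159 lower ones, and its 907 core ISs had a median of -0.35. Chromosome 15 held 39 and chromosome 16 held 25 of the 71 higher ones, with medians of 0.09 and 0.24. Over all WT ISs of chromosomes 10, 15 and 16 the medians were -0.42, 0.06 and 0.23, so these shifts were not particular to the core. Without these chromosomes 6 core ISs were higher and 34 lower among 12695. Among core ISs at or above the core's median density in the table, to which all named fold changes are limited, the 5 lowest all lay on chromosome 10, from Adamtsl5 (chr10:79811534-79812112, 5.89 in WT and 4.95 in Rif1KO, -0.94 ± 0.17 counting error) to the promoter of Zbtb7a, a repressor of blood cell genes (-0.88 ± 0.20), with Klf16, a zinc finger factor, at -0.89 ± 0.14. All 5 were within 1615 bp of a TSS and held a G4 pattern. A G4 pattern was present in 81% of all core ISs. The 5 lie between 70 and 90 Mb, where the core's median was -0.45 up to 80 Mb and -0.43 beyond.

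The 5 highest at or above the median density lay on chromosomes 15 and 16. None was at a promoter, where 6.93% of all core ISs lay. The Krt8 intron IS (chr15:101832577-101833088) had the highest fold change of these, with 5.22 in WT and 6.24 in Rif1KO (1.02 ± 0.16). Intergenic ISs followed near Calcoco1, an autophagy receptor gene (0.83 ± 0.17 and 0.80 ± 0.15), Pros1, the gene of protein S (0.81 ± 0.17), and Csmd3 (0.80 ± 0.16). Of these 5, 2 held a G4 pattern. The Krt8 IS had 4.92 in Rif1KO_shLacZ and 4.71 in Rif1KO_shMcm6, a difference of -0.21.

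Between the hairpin groups the core was slightly lower in Rif1KO_shMcm6, and so were the other WT ISs. The median log2 fold change of Rif1KO_shMcm6 against Rif1KO_shLacZ was -0.10 with a standard deviation of 0.23 over 15240 core ISs, and 68.3% of them were below 0. The 6234 other WT ISs with a value had the same median, -0.10, with 66.9% below 0, beside a median of -0.01 and 51.5% over all autosomal ISs of the table. At 1.5-fold, 106 core ISs (0.696%) were higher and 173 (1.14%) lower, beside 4.82% and 1.49% of all autosomal ISs of the table. Most ISs of that table were not called in WT, and the core is its denser part.

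The 5 lowest at or above the median density were all promoters with a G4 pattern and a GC content of 63.2% or more. They were Dazap2, an adaptor protein gene (chr15:100445406-100446206), which had 4.81 in Rif1KO_shLacZ and 3.95 in Rif1KO_shMcm6 (-0.86 ± 0.10), Maz, a zinc finger factor (-0.85 ± 0.11), Ddx6, an RNA helicase of P bodies (-0.85 ± 0.11), Pou6f1, a POU domain factor (-0.84 ± 0.11), and Jarid2, a partner of the PRC2 complex (-0.80 ± 0.13). Their differences between WT and Rif1KO ran from -0.13 to 0.28. A G4 pattern was present in 85.3% of all core promoter ISs.

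The 5 highest within the same limit lay in introns or intergenic sequence. The Creg1 intron IS (chr1:167698013-167698434) had 3.49 in Rif1KO_shLacZ and 4.90 in Rif1KO_shMcm6 (1.41 ± 0.11), with 4.65 in WT and 4.42 in Rif1KO. Intergenic ISs near Tagap, a GTPase regulator of lymphocytes (1.33 ± 0.13), and Cyp2u1, a cytochrome P450 gene (1.30 ± 0.11), an intron of Dach1 (1.16 ± 0.13) and an IS near Abca13 (1.08 ± 0.10) followed. None was at a promoter and 1 of the 5 held a G4 pattern, beside 6.93% and 81% of all core ISs. The share of distinct 12-base words was 9.25% at Creg1, 37.4% at Tagap, 44.1% at Cyp2u1, 31.6% at Abca13 and 85.4% at Dach1. Of the 15240 core ISs with a value in both contrasts, 6 were lower by 1.5-fold in both and 1 was higher in both. Another 1 was lower in Rif1KO and higher in Rif1KO_shMcm6. The single contrasts had 159 and 173 lower and 71 and 106 higher core ISs, and nothing is read from the small overlaps.

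Within the core, fold changes differed by gene context and base composition. Core promoter ISs, within 1 kb of a protein-coding TSS, had a median of -0.13 between WT and Rif1KO and -0.18 between the hairpin groups, while core intergenic ISs had 0.00 and -0.09. In the hairpin contrast 5.13% of 1052 core promoter ISs were lower by 1.5-fold against 0.669% of 8519 core intergenic ISs. Core ISs with a GC content of 65% or more had -0.13 and -0.22, and those under 40% GC had 0.06 and -0.03. Presence of a G4 pattern made no such division, with -0.02 and -0.10 for ISs that held one and -0.03 and -0.11 for those that did not. Without chromosomes 10, 15 and 16 the promoter medians were -0.12 and -0.18.

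Core ISs lay less often at promoters than the other WT ISs. Promoter ISs made up 6.93% of the core (6.54 to 7.35%) and 8.93% of the others (8.39 to 9.49%), and ISs that covered a TSS made up 2.54% (2.31 to 2.81%) and 3.84% (3.49 to 4.22%). Intergenic ISs made up 55.9% of the core and 52.8% of the others, introns 31.8% and 33.1%, and other exons 5.41% and 5.19%. Read the other way, 53.1% of WT promoter ISs were core, against 60.7% of intergenic, 60.3% of exon and 58.3% of intron ISs. Where an overlap of 50% of both ISs defines the core, the difference in promoter share shrank from -1.99 to -0.142 percentage points.

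The promoters that left the core were the more GC- and CpG-rich ones. The median GC content of the central 300 bases was 59.3% in core promoter ISs and 62% in other promoter ISs, and the median ratio of observed to expected CpG was 0.495 and 0.612. Of promoter ISs with a CpG ratio of 0.6 or more, 46.9% (43.7 to 50.2%) were core, against 58.1% (55.1 to 61.0%) of the rest. By GC class the core share ran between 57.9% and 62.6% from the lowest class up to 70% GC and was 43% (38.6 to 47.5%) among the 479 WT ISs at 70% or more, where 67.5% of the core ISs were promoters. Over the whole set the GC contents were close, with medians of 48.7% in the core and 48.3% outside, both above the 41.7% of 7978600 tiles of 300 bp that cover the autosomes.

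G4 patterns were common at all WT ISs and more so in the core. A pattern was present in 81% of core ISs (80.4 to 81.6%) and in 75.7% of the others (74.9 to 76.5%). In the central 300 bases, a window of equal length for every IS, the shares were 60.4% and 56.5%, against 5.13% of the autosomal tiles. Where the centre falls relative to a pattern can still depend on width, which was not tested. Within GC classes from 45 to 65% the core still held more, for example 63.6% against 57.4% at 45 to 50% GC, where 6.77% of tiles had a pattern, while the groups differed by less than 3 percentage points in each class below 45% GC and at 70% or more (83% against 81.3%). At 65 to 70% GC the direction was reversed, with 72.4% in the core and 75.2% outside. With 50% overlap of both ISs as the definition of the core the difference was 1.29 in place of 5.34 percentage points. Runs of 10 or more CA or TG units were in the central 300 bases of 1.23% of core ISs and 1.08% of the others, with overlapping intervals, against 2.97% of tiles. Runs of 12 or more A or T were in 4.03% and 4.19%, against 3.55% of tiles.

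The core share varied with density, G4 patterns and promoter position. When WT ISs were ranked into 5 equal classes by WT density, the core share was 41.7% in the lowest class and 69.1% in the highest. ISs with a G4 pattern were core in 43.5% of cases in the lowest class, against 35.7% of ISs without one, and the gap narrowed to 69.5% against 67.2% in the highest class. Promoter ISs were core in 22.5% of 173 cases in the lowest class, where other ISs were core in 42.3%, and in 65.3% of 784 cases in the highest class, where other ISs were core in 69.8%. The lower share at promoters was present in every density class, and the intervals did not overlap in the lower 4 classes.

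**Figure D3:**
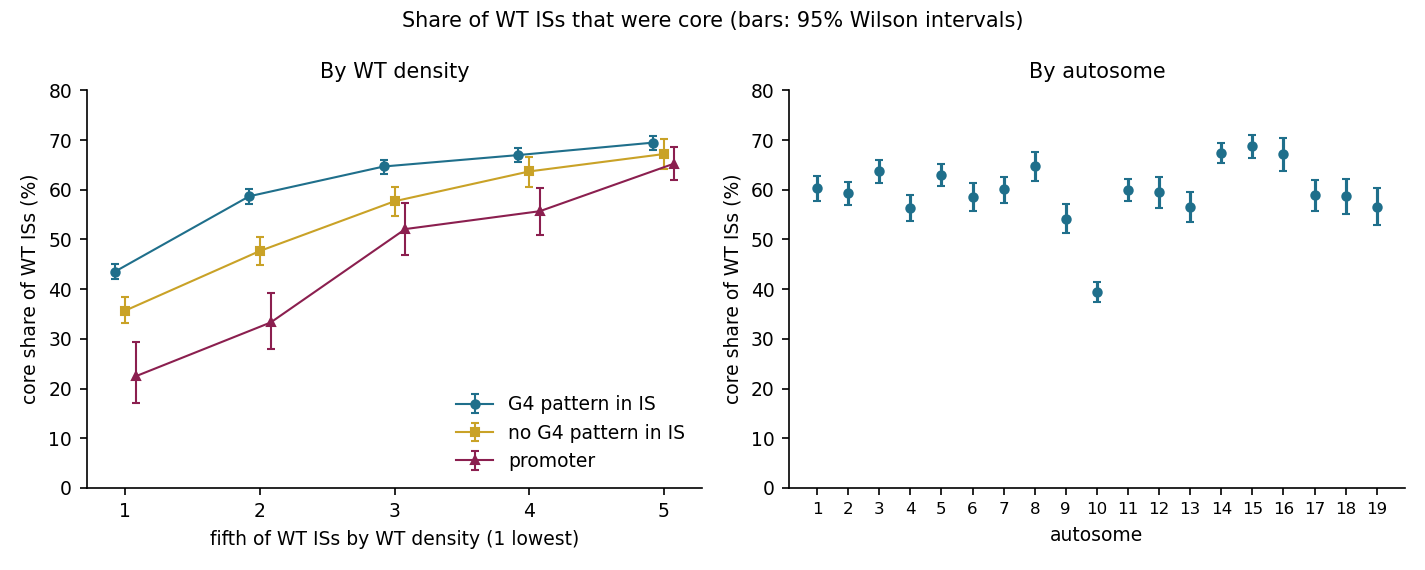
Share of WT ISs that were core in percent (vertical axes), by class of WT density for ISs with a G4 pattern, without one and at promoters (left) and by autosome (right), with 95% Wilson intervals. The share rises with density, promoters lie below from 22.5% to 65.3%, and chromosome 10 stands apart at 39.4%.

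G4 patterns sat on one side of the IS centre, in the core as elsewhere. Patterns with G runs on the plus strand were most frequent 200 to 100 bp to the left of the WT centre, in 25.9% of core ISs, and fell to 2.33% at 100 to 200 bp to the right. Patterns on the minus strand mirrored this, with 26% at 100 to 200 bp to the right and 2.47% at 200 to 100 bp to the left. The other WT ISs showed the same arrangement at slightly lower levels, 23.5% and 24.3% at the peaks. A much smaller rise was present in core ISs 1000 to 900 bp to the left on the plus strand (2.14%, 1.93 to 2.39%, against 1.36% at the mirrored place). The other WT ISs had 1.62% against 1.16% there. On the minus strand the share at 900 to 1000 bp to the right was 2.1% in the core and 1.76% outside, against 1.59% and 1.12% at the mirrored place. Patterns were on the plus strand only in 40.1% of core ISs, on the minus strand only in 39.2% and on both in 1.73%.

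**Figure D4:**
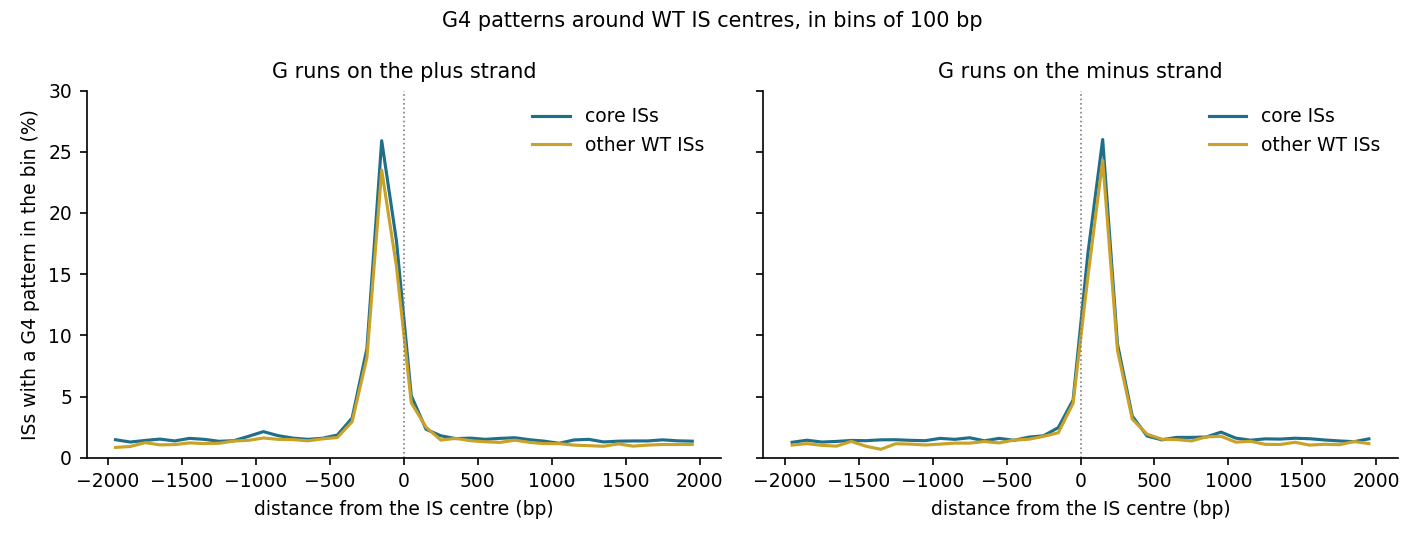
Share of ISs with the middle of a G4 pattern in each 100 bp bin (vertical axis, percent) against distance from the WT IS centre in bp (horizontal axis), for G runs on the plus (left) and minus strand (right), core ISs in blue and other WT ISs in yellow. Both panels peak between 100 and 200 bp from the centre, on opposite sides, at 25.9% and 26% in the core.

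Core ISs were wider in the other lists, and they widened away from the G4 pattern. The median width rose from 426 bp in WT to 469 bp in Rif1KO, 670 bp in Rif1KO_shLacZ and 746 bp in Rif1KO_shMcm6. For the 6109 core ISs with G runs on the plus strand only, the left edge in Rif1KO_shLacZ was displaced from that in WT by a median of -7 bp and the right edge by 198 bp. For the 5984 with G runs on the minus strand only the displacements were -202 bp on the left and 8 bp on the right. In Rif1KO_shMcm6 they were -9 and 261 bp, and -261 and 11 bp. For the 2893 core ISs without a pattern both edges moved outwards, by -73 and 64 bp in Rif1KO_shLacZ.

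The centre of a core IS shifted with the strand of its G runs. In Rif1KO_shLacZ the centre lay to the right of the WT centre for 89.3% of ISs with plus-strand runs (88.5 to 90.1%), for 10.7% with minus-strand runs and for 48.3% with neither, and in Rif1KO_shMcm6 for 85%, 13.3% and 47.9%. The same order was present in Rif1KO, with 67%, 33.7% and 50.3%, although edges there moved by a median of 24 bp at most. The Krt8 IS, with its C runs to the right of the centre, spanned chr15:101832220-101833250 in Rif1KO, chr15:101832056-101833260 in Rif1KO_shLacZ and chr15:101832044-101833305 in Rif1KO_shMcm6, so it grew mainly to the left. The depth of the merged columns moved with width, from 3350255 reads in ISs in WT and 3724571 in Rif1KO to 21071351 in Rif1KO_shLacZ and 23602750 in Rif1KO_shMcm6, and its part in the shift was not tested.

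**Figure D5:**
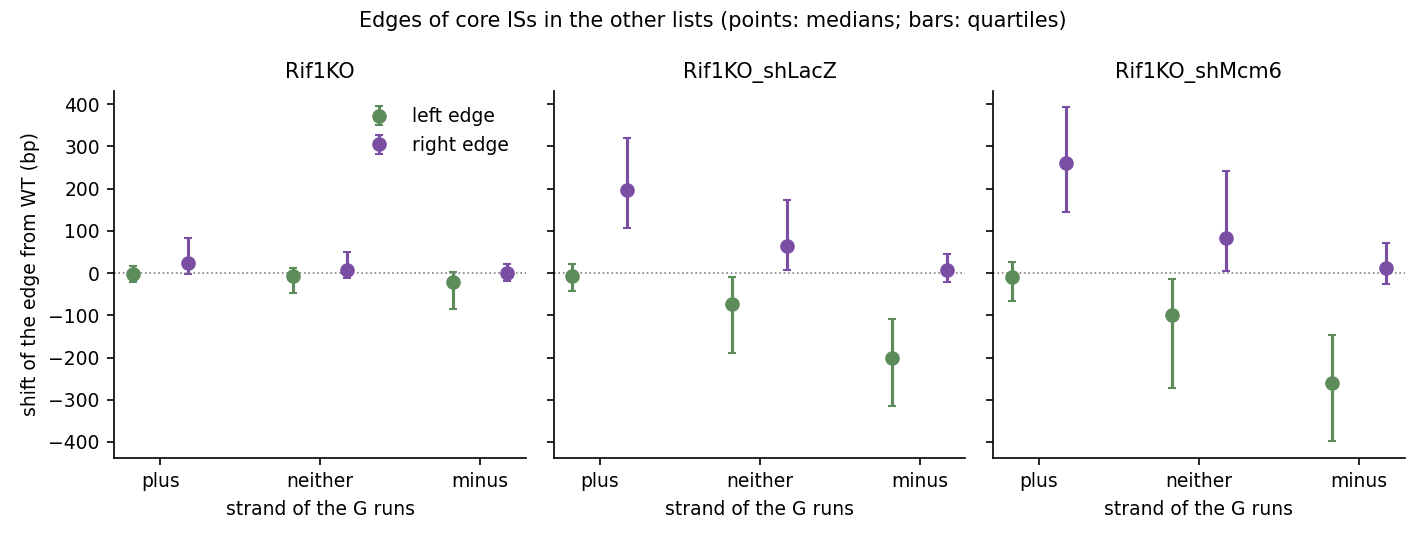
Displacement in bp (vertical axis) of the left (green) and right (purple) edge of core ISs in each other list from the WT edge, by strand of the G runs (horizontal axis), with points for medians and bars for quartiles. In the hairpin lists the edge on the far side of the G4 pattern moves, by 198 and -202 bp in Rif1KO_shLacZ, and the near edge stays within 11 bp.

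Along the genome, 18 of the 19 autosomes had core shares between 54.2% (chromosome 9) and 68.8% (chromosome 15), and chromosome 10 had 39.4% (37.4 to 41.4%). Without chromosome 10 the core share was 61.2%. On that chromosome the share was 58.3% to 63.2% in the first 3 bins of 10 Mb, 35.4% to 49.1% between 50 and 100 Mb and 21.3% to 28% between 100 and 130 Mb. The lists differed in where their overlap was low. From 50 Mb on, 48.9% to 59.6% of WT ISs per bin overlapped the Rif1KO list, while 72% or more did so before, and the core ISs there had medians of -0.24 to -0.45 between WT and Rif1KO. Between 110 and 120 Mb 36.2% of WT ISs overlapped the Rif1KO_shLacZ list and 35% the Rif1KO_shMcm6 list, against 80.6% and 80.9% at 70 to 80 Mb, and the log2 density of core ISs in Rif1KO_shLacZ less that in Rif1KO, set against the core's median over the genome, was -0.85 across the separately scaled tables.

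Chromosome 16 was the reverse case for Rif1KO. There 92.2% of WT ISs overlapped the Rif1KO list, 67.2% were core, and the core's median between WT and Rif1KO was 0.24. Peaks were called without input, and the DNA content of these stretches was not tested.

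Core ISs were concentrated where WT ISs were crowded. Of WT ISs with 1 other WT IS within 50 kb, 50.7% (49.6 to 51.8%) were core, and the share grew over 57.8%, 65.3% and 68.3% to 74.1% (71.5 to 76.5%) of those with 6 or more. The median WT density grew alongside from 4.56 to 4.91, and the gap between crowded and sparse places differed by density class. In the lowest class 38.2% (36.1 to 40.2%) of WT ISs with 1 neighbour and 41.4% (37.8 to 45%) of those with 4 or more were core, with overlapping intervals. The shares were 51% and 60% in the second class, 56% and 70.7% in the third, 56.2% and 77.9% in the fourth and 57.9% and 81.4% in the highest. Isolated peaks had been removed from every list, as given above. The median gap between successive core ISs was 28718 bp, with quartiles of 9220.5 and 151669 bp.

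The most crowded 500 kb windows differed in gene content. A window at chr7:51500001-52000000 held 27 core ISs of 38 WT ISs, with 21 protein-coding genes that included Spib, an Ets factor of B cells, Pold1, the catalytic subunit of DNA polymerase delta, and the synaptic scaffold gene Shank1. A window at chr5:113000001-113500000 held 25 core ISs of 29 over Sez6l, Myo18b, Adrbk2 and Crybb2, none of them at a promoter, and 23 of the 25 had a G4 pattern. Windows at chr4:139500001-140000000, with 3 genes, and chr10:80500001-81000000, with 33 genes, held 23 each. The second of these lies in a 10 Mb bin of chromosome 10 where 46.7% of WT ISs were core.

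Long genes held the most core ISs. Of 21418 protein-coding gene models 3244 held at least 1 in their span, and the 27 with 10 or more had a median length of 519.7 kb against 15.5 kb for all. The predicted model Gm20388, which spans 4434.9 kb, held 76. Gpc5, a glypican gene, held 27 of its 39 WT ISs, Sox5, a developmental transcription factor, 17 of 22, and Arfip1, for an arfaptin, 17 of 26. Fgf14, Wwox, a tumour suppressor at a fragile site, and Rbfox3, a neuronal splicing factor, held 15 each. Per length these genes ranged from 12.2 core ISs per Mb in Arfip1 to 35.6 in Rbfox3.

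At single genes, 1041 of 21281 protein-coding gene symbols (4.89%) had a core IS within 1 kb of a TSS, and 1958 had a WT IS there. The gene lists hold 24 genes for B cell transcription factors and 27 for origin licensing and firing, of which Spi1 and Ticrr were not found among the autosomal protein-coding symbols and are left out below. Among 23 B cell transcription factor genes Myc and Nfkb1 had one, and Ikzf1 and Relb had a WT IS that was not core. Myc, a classically mapped origin, showed both kinds. A core IS at chr15:61816040-61817084 lay over its TSS with 7.99 log2 RPM in WT, 7.85 in Rif1KO, 4.89 in Rif1KO_shLacZ and 4.56 in Rif1KO_shMcm6. A neighbouring WT IS at chr15:61817151-61817868, in the same merged IS of the first table, overlapped no hairpin IS. A second core IS began 755 bp from a Myc TSS, with 5.77, 5.80, 4.40 and 3.85.

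The core Nfkb1 IS, at the TSS of the NF-kappaB p50 gene, had 6.02, 6.15, 4.39 and 4.06 log2 RPM. Of the B cell signalling genes reported here, the kinase gene Pim1 had a core IS with 5.92, 6.14, 4.23 and 3.72, and Rhoh, a small GTPase gene, had one with 4.78, 4.64, 4.10 and 3.91. All 3 genes were lower in Rif1KO_shMcm6 than in Rif1KO_shLacZ, with differences of -0.32 for Nfkb1, -0.50 for Pim1 and -0.19 for Rhoh.

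The other lists are given beside the 4.89% of all genes that had a core IS, and no list was tested against that share. At that share, lists of 15, 22 or 26 genes are too short for an absence to stand out. Nothing is therefore read from the absence of core ISs in the licensing, housekeeping and other-lineage lists. None of 26 origin licensing and firing genes, 15 housekeeping genes, 22 genes of other lineages, 79 ribosomal protein genes and 67 replication-dependent histone genes had a core IS at a TSS, and Gins2, Orc4, Eef1a1 and Rpl15 were among those with a WT IS. The Gins2 IS was found again in Rif1KO_shLacZ only, and those of Orc4 and Eef1a1 were missing from Rif1KO_shMcm6 alone. Of 39 Hox genes 7 had a core IS, 5 of them in the Hoxc cluster (Hoxc4, Hoxc9, Hoxc10, Hoxc11 and Hoxc13), besides Hoxa13 and Hoxb7. The Hoxc cluster lies in the last bin of chromosome 15, where 81.6% of WT ISs were core and the core's median between WT and Rif1KO was 0.38, but the log2 fold changes of its own core ISs were lower, at 0.30 for Hoxc13, 0.04 for Hoxc4, 0.03 for Hoxc10, -0.03 for Hoxc11 and -0.39 for Hoxc9. Hoxa3, Hoxa4, Hoxa9, Hoxa11 and Hoxd4 had WT ISs outside the core. Of 358 Zfp genes 18 had one (5.03%), and of 1106 olfactory receptor genes 1 had (Olfr639).

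Of the 10 densest WT ISs outside the core, 8 overlapped the Rif1KO list, 4 the Rif1KO_shLacZ list and 1 the Rif1KO_shMcm6 list. Of all 10475 WT ISs outside the core, 47.4%, 46.5% and 43.7% did. The densest, in an intron of Sp110 at chr1:87488991-87489895, had 8.73 in WT and 8.57 in Rif1KO and overlapped neither hairpin list, and an IS near Ly6c2 at 8.14 in WT and 7.95 in Rif1KO overlapped no other list. The promoter ISs of Ccdc9 and Map2k2 and an exon IS of Rere were missing from Rif1KO_shMcm6 alone.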

How the data were processed

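The authors trimmed reads (Trim Galore 0.6.4, cutadapt 2.6, per the labels), aligned them uniquely to mm9 with Bowtie 1.2.3, called peaks in each replicate with MACS without input, intersected replicates, and kept clustered peaks only. Each condition has 1 list of positions. The 2 merged tables give log2 RPM, scaled by the authors to the reads within the ISs of a table, as 1 pooled number per condition. Every deposited value equalled a whole number of reads within 0.05 reads. The authors' fold change categories, also deposited, were not used. Some genes and sequences that the rules below select are not reported here.

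Overlaps, Wilson intervals (95%), TSS distances (GENCODE vM1 protein-coding transcripts, same build) and sequence were computed in Python 3.11.15 with numpy 2.4.6 and pandas 2.3.3. The overlap code was tested on simulated data against bedtools 2.31.1. An IS within 1 kb of a TSS was a promoter IS, and others were exon, intron or intergenic. Density was that of the single merged IS that a WT IS fell in. No test between conditions was possible, and errors beside fold changes are counting errors of the pooled reads. Reads include PCR copies.

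The members and lists were chosen with earlier results of these data known. Named ISs were the 10 densest by mean rank, the 5 highest and 5 lowest fold changes per contrast among ISs at or above the core's median density, the 6 genes (with ties) and 3 windows (with ties) with the most core ISs, list genes with a core IS, and the smallest overlaps. The comparisons by density class, GC class, edge displacement and 10 Mb bin, the Hox genes named beyond that rule, and the densest WT ISs outside the core were chosen after the values were seen.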

Additional observations from a re-analysis of the deposited data

How the results depend on the processing

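Of 56 alternative values, 26 stayed within the counting interval or within 1.5 times the count, 30 moved and 0 changed sign. The core share of WT ISs was 36.1% with an overlap of 50% of both ISs and, in an alternative chosen after seeing the data, 61.2% without chromosome 10. With 50% overlap the share of reads in core ISs was 31.3% in WT, 30.3% in Rif1KO, 11.5% in Rif1KO_shLacZ and 10.6% in Rif1KO_shMcm6. Per kb of merged IS, the density difference between core and other WT ISs was 0.03, 0.15, 0.11 and 0.11 in the same order. For Rif1KO against WT, core ISs counted as higher and lower numbered 2 and 0 at 2-fold, 869 and 1392 at a log2 threshold of 0.32, and 6 and 34 without chromosomes 10, 15 and 16. For Rif1KO_shMcm6 against Rif1KO_shLacZ they numbered 11 and 3 at 2-fold, 613 and 2200 at 0.32, and 69 and 91 on the log2(RPM + 1) scale. The difference in promoter share was -1.29 percentage points for ISs overlapping the TSS and -0.142 with 50% overlap. The difference in G4 share was 3.83 in the central 300 bases, 3.96 with loops of 1 to 12 bases and 1.29 with 50% overlap. The difference in core share between crowded and sparse places was 14.9 percentage points with neighbours within 200 kb and 26.5 without chromosome 10. Of the genes in lists of up to 30 genes 3 had a core IS within 500 bp of a TSS. The cause of these changes was not tested.

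No paired analysis was possible because replicates had been merged into a single value before deposit, so no replicate was left out either. The lists carry no peak score, so a stricter peak threshold was not run. The median core IS had 89 reads in WT and 247 in Rif1KO_shLacZ, and depth limits single fold changes accordingly.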
